A study of Mus musculus with 35 samples.

Results

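The replication-dependent histone genes encode the linker histone H1 and the core histones H2A, H2B, H3 and H4 that package newly copied DNA. They were taken here as every gene whose symbol begins with Hist1h, Hist2h, Hist3h or Hist4h, which gave 68 of the 23366 genes in the deposited RNA count table. By class these were 6 H1, 18 H2A, 19 H2B, 12 H3 and 13 H4 genes, and by cluster 54 lay in Hist1, 10 in Hist2, 3 in Hist3 and 1 in Hist4. Hist3h2bb-ps, counted under H2B and Hist3, is annotated as a transcribed pseudogene. The members were chosen by symbol alone, but the family itself was selected on its read counts in these same 6 libraries, known from earlier results. Its levels, fold changes and calls are therefore given as a description of these libraries and support nothing beyond them.

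The RNA came from mouse cranial neural crest, the migratory cells from which much of the facial skeleton forms, at E12.5. Every embryo carried Wnt1-Cre, which acts in the neural crest and also in part of the developing brain, and a Rosa-Tomato reporter, and cells were sorted for Tomato fluorescence and exclusion of the dye DAPI. The wild-type group was male and carried Wnt1-Cre alone, the male knockout was Utx fl/y, Wnt1-Cre, and the female knockout was Utx fl/fl, Wnt1-Cre, with 2 libraries in each. Utx, also called Kdm6a, is an X-linked gene for an enzyme that removes methyl groups from lysine 27 of histone H3. There was no wild-type female RNA, so sex and genotype cannot be told apart in the female comparison. The labels do not say whether libraries came from separate embryos or pools, and p-values then measure only the spread between these libraries, which may be technical.

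Histone genes of this kind are switched on as cells enter S phase, when NPAT, bound at the clusters, drives their transcription. Their typical transcripts carry no introns and end in a stem-loop that is bound by SLBP, in place of the poly(A) tail that other mRNAs have. Some members also make polyadenylated transcripts, and replacement variants such as H3f3b are made throughout the cell cycle from ordinary polyadenylated mRNAs. The labels name a stranded kit that isolates mRNA, so the reads described here are those that passed that isolation, and how much of each transcript carried a tail was not measured.

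The 6 libraries held 14513993 to 16350892 reads on genes, of which 1928 to 2697 fell on the family. Levels are CPM, the counts scaled to each library's reads on genes. Kdm6a stood at 47.3 and 55.5 CPM in the wild types, 39.7 and 30.8 in male knockouts and 49.7 and 62.7 in female knockouts, but a conditional deletion need not remove reads from the whole gene, so this checks nothing. The Y-linked Uty and the X-inactivation RNA Xist matched the labelled sexes. The share of reads outside annotated genes split the libraries into 2 sets, at 21.5% to 22.1% for wild type 1, male knockout 2 and female knockout 1 and at 27.6% to 27.9% for the others, with 1 library of every group in each set. The 11 neural crest markers were present at 1816 to 2069 CPM in sum. In both knockouts together against wild type, 8 had a positive log2 fold change and 3 a negative one, with a median of 0.17. Only Dlx2 was called, lower by 0.72 on the log2 scale (edgeR adjusted p = 0.0379), where 4.04% of all genes tested were called lower. With the library set as a term in the fit, 4 were called higher and 2 lower, where 16.3% of genes were each way. All 6 neural tube markers fell in the knockouts, from a summed 171 and 211 CPM in wild type to 58.4 to 78.0 CPM. Each was called lower in both knockouts together against wild type (edgeR adjusted p under 0.05), where 4.04% of all genes tested were. In the female and the male comparison by itself, 4 of the 6 were called lower, where 0.820% and 1.96% of genes were. The erythroid list summed to 1129 CPM in male knockout 2 and to 267 to 442 CPM in the other libraries, with Hba-a1 and Hba-a2 listed at 0 throughout. Leukocyte markers summed to 7.43 and 9.03 CPM in wild type and 4.29 to 5.26 CPM in the knockouts. Endothelial and epithelial markers summed to 8.68 to 13.6 and 12.4 to 18.4 CPM, overlapping between groups. The part of these other cells in the histone results was not tested.

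The stretch just before the start of a histone gene holds elements shared within a class, and 7 of these stretches are shown because the genes they belong to carry the main contrast: Hist1 genes of each class, which were higher in the knockouts, and both Hist3 genes with most of the reads, which were not. Hist1h3c stands for the H3 class because no window was at hand for Hist1h3f. Each is the 140 bases before the annotated start in RefSeq's GRCm38.p6 annotation, written on the strand of the gene, at chr13:21780626-21780765 (minus strand), chr13:21753913-21754052 (minus), chr13:23746594-23746733 (plus), chr13:23745522-23745661 (minus), chr13:22041363-22041502 (minus), chr11:58954545-58954684 (plus) and chr11:58948771-58948910 (plus). Capitals mark CCAAT, the octamer ATTTGCAT, TATAAA, the H1 element AAACACA or the H4 element GGTCCG, on either strand.
Hist1h1b: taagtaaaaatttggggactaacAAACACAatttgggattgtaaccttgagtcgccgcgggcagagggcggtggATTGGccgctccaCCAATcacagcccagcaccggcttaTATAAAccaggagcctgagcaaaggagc
Hist1h2ak: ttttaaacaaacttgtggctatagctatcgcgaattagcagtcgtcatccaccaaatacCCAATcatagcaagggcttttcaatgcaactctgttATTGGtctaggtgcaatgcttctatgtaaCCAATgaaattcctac
Hist1h2bb: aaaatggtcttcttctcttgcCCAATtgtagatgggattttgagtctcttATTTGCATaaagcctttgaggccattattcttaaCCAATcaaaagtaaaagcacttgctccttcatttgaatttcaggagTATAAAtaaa
Hist1h3c: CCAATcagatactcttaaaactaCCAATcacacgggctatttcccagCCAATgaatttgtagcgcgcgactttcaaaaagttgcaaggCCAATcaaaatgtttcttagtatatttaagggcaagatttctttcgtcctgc
Hist1h4i: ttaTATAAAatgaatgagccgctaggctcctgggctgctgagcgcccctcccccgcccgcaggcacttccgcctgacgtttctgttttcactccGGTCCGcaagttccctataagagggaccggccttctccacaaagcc
Hist3h2a: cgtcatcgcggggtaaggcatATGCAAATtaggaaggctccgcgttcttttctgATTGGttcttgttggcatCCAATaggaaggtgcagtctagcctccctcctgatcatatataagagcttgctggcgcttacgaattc
Hist3h2ba: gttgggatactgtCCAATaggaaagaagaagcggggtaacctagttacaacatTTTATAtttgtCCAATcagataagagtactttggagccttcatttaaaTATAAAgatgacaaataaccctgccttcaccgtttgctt

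In windows from 250 bases before the start to 50 after it, which were at hand for 62 of the 68 genes, CCAAT was present for 6 of 6 H1, 18 of 18 H2A, 16 of 16 H2B and 10 of 10 H3 genes and for 3 of 12 H4 genes, against 37.4% of the 32851 windows of all genes. The octamer lay in 7 of 18 H2A and 6 of 16 H2B windows, in no window of the other classes, and in 1.74% of all windows. Divergent H2A and H2B neighbours share bases, so these windows are not all separate. AAACACA was found for 5 of 6 H1 genes (7.18% of all windows) and GGTCCG for 11 of 12 H4 genes (8.25%). TATAAA lay in 35 of 62 windows (13.6%). Of the stretches shown, those of both Hist3 genes and of the H1, H2A, H2B and H3 genes of Hist1 carried CCAAT, that of Hist1h4i did not, and those of Hist3h2a and Hist1h2bb carried the octamer. A match of letters is a description and not a measured binding site.

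Summed over the family, histone reads overlapped between groups, while the Hist1 cluster was higher in every knockout library and Hist3 lower in CPM, though its genes overlapped between groups under TMM, edgeR's scaling for differing RNA composition. All members together stood at 158 and 133 CPM in the wild types, 150 and 165 in male knockouts and 162 and 158 in female knockouts, and wild type 1 lay inside the range of the knockouts. The Hist1 cluster on chromosome 13 stood at 34.8 and 21.98 CPM in the wild types, 65.9 and 57.2 in male knockouts and 60.7 and 53.3 in female knockouts. Every knockout library lay above both wild types, and the group means were 28.4 ± 9.10 CPM (SD, n = 2), 61.6 ± 6.09 and 57.0 ± 5.27, which is 2.17-fold and 2.01-fold the wild type. The 3 Hist3 genes on chromosome 11 together stood at 105.8 and 94.7 CPM in the wild types, 67.5 and 91.3 in male knockouts and 84.96 and 84.04 in female knockouts. All 4 knockout libraries were lower here, with means of 100.3 ± 7.85 (SD, n = 2), 79.4 ± 16.8 and 84.5 ± 0.652 CPM. Hist1 accordingly made up 21.98% and 16.5% of all histone reads in wild type and 33.7% to 44.0% in the knockout libraries, and Hist3 made up 66.8% and 71.3% against 45.1% to 55.4%. Hist2 on chromosome 3 summed to 14.1 and 16.4 CPM in wild type and 13.9 to 18.9 CPM in the knockouts, with overlap. With 2 libraries against 2, an exact permutation test of a single sum cannot reach 0.05, and none is given.

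**Figure D1:**
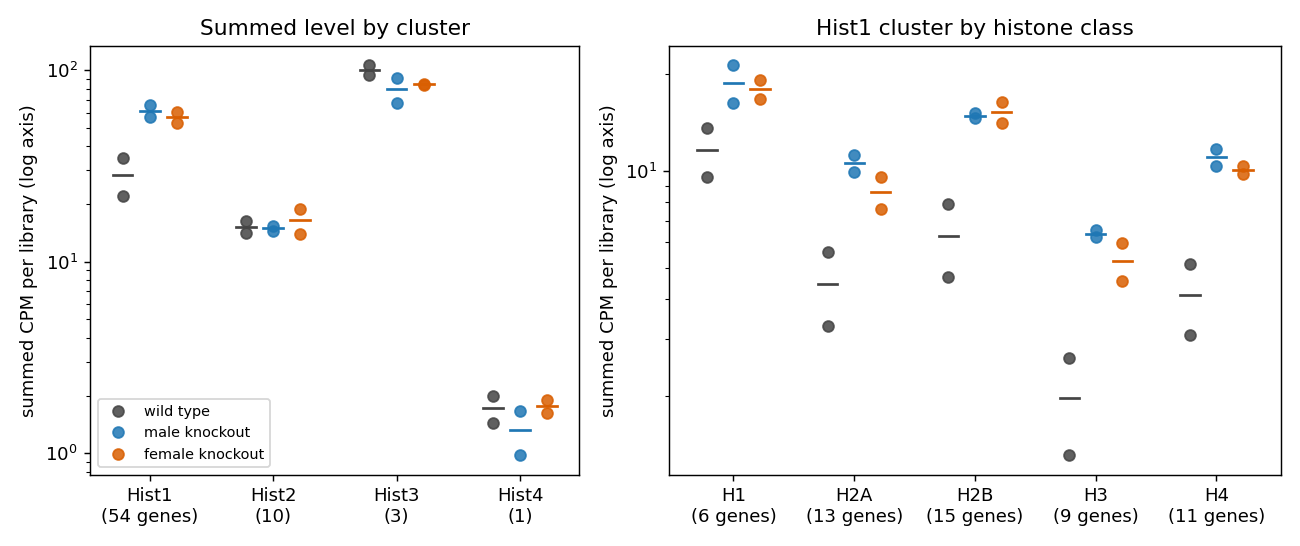
Summed CPM (log axis) of the members of each cluster (left) and of each histone class within Hist1 (right); points are libraries, short lines group means, and colours the 3 groups. Every knockout point of Hist1, and of each of its classes, lies above both wild-type points, while those of Hist2 and Hist4 overlap and those of Hist3 lie at 67.5 to 91.3 CPM, under the wild types in CPM, where its genes overlapped under TMM scaling.

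Each class of the Hist1 cluster was higher in all 4 knockout libraries. The 6 H1 genes, whose products bind linker DNA, stood at 13.6 and 9.58 CPM in the wild types, 21.3 and 16.2 in male knockouts and 19.1 and 16.7 in female knockouts, 1.62-fold and 1.55-fold. The 13 H2A genes stood at 5.59 and 3.31 CPM in the wild types, 11.2 and 9.91 in male knockouts and 9.57 and 7.59 in female knockouts, 2.37-fold and 1.93-fold. The 15 genes of H2B, the partner of H2A in the nucleosome, stood at 7.89 and 4.69, then 15.1 and 14.6, then 16.3 and 14.1 CPM, 2.36-fold and 2.42-fold. No library of the knockouts overlapped the wild types in any of these. The 9 H3 genes, whose product carries the lysine that UTX demethylates, stood at 2.63 and 1.31 CPM in the wild types, 6.53 and 6.24 in male knockouts and 5.95 and 4.54 in female knockouts, 3.24-fold and 2.66-fold. The 11 H4 genes stood at 5.13 and 3.10, then 11.7 and 10.3, then 9.75 and 10.3 CPM, 2.68-fold and 2.44-fold. The wild-type libraries differed from each other in every class, with wild type 2 the lower. Whether the classes differed in their fold was not tested.

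Wild type was the lowest of the groups for Hist1, and the highest for Hist3 in CPM, inside each set of libraries. In the set with the lower share of reads outside genes, Hist1 stood at 34.8 CPM in wild type, 57.2 in male knockouts and 60.7 in female knockouts, 1.64-fold and 1.74-fold. In the other set it stood at 21.98, 65.9 and 53.3 CPM, 2.996-fold and 2.42-fold. The larger ratios of that set go with the lower of the wild-type values. Hist3 was at 0.863 and 0.803 of wild type in the first set and at 0.713 and 0.887 in the other.

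Gene by gene, 62 members had a read, and for 37 of them all 4 knockout libraries were above both wild types in CPM, where this held for 7.57% of the 20493 genes with a read. It held for 5 H1, 8 H2A, 10 H2B, 8 H3 and 6 H4 genes, of which 33 lie in Hist1, 4 in Hist2 and 0 in Hist3 or Hist4. For 3 members, Hist3h2a, Hist3h2ba and the testis H2B gene Hist1h2ba, all 4 knockout libraries were below both wild types, against 23.6% of genes. When library totals were scaled by TMM, the counts became 40 above (14.3% of genes) and 1 below (15.9%); the Hist3 genes then overlapped between groups. Counts of 1 to 5 reads make up many of these values, so single low genes carry little weight.

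**Figure D2:**
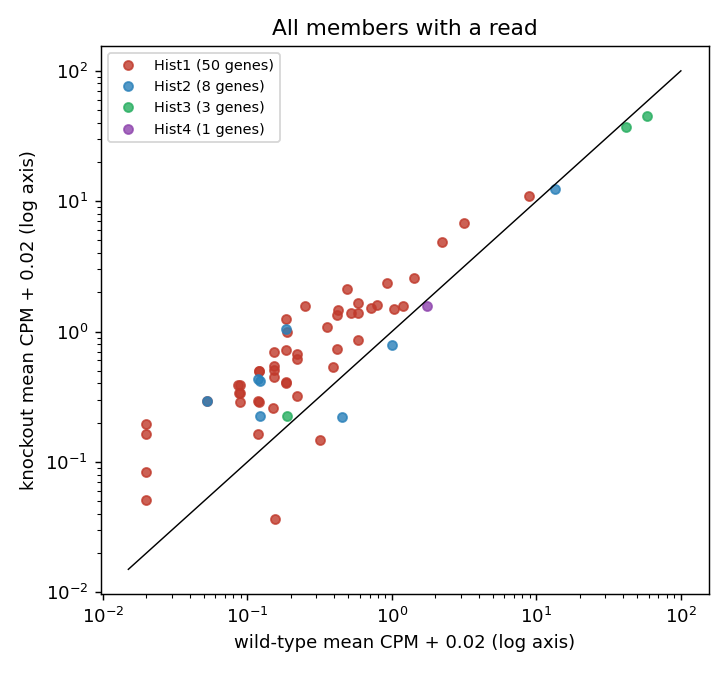
Mean CPM over the 4 knockout libraries against mean CPM over both wild types for the 62 members with a read, on log axes with 0.02 CPM added, coloured by cluster; the line marks equal levels. Most Hist1 points lie above the line over the whole range of levels, and the Hist3 points with the highest levels lie on or just under it.

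Both knockouts were then set together against wild type in a fit over the 14521 genes that passed edgeR's filter on low counts. Of the 68 members 30 passed it, and 7 of these were called higher (edgeR adjusted p under 0.05), where 1.07% of all genes tested were, and 0 lower, where 4.04% were. At an unadjusted p under 0.05, 21 were higher (11.4% of all genes tested) and 0 lower (14.6%). DESeq2, which gave an adjusted p for 23 of the 30, called 7 higher (2.5% of genes with such a p) and 0 lower (5.6%). The filter asks for reads in only 2 libraries, so a member could pass on the strength of the knockouts alone; 7 tested members had a mean wild-type count under 5, and the count of calls among those tested is therefore no measure of the family. The median log2 fold change of the tested members was 1.30, beside 0.01 over all genes tested. It is taken over the same filtered members, so neither it nor the medians given below measure the family as a whole. The number of calls rested on single libraries and moved with the library left out, and calls over all genes moved too. The median log2 fold change of the tested members was 1.88 without wild type 1 and 1.02 without wild type 2. It was 1.45 and 1.29 without male knockout 1 and 2, and 1.28 and 1.42 without female knockout 1 and 2. With the library set as a term in the fit, all 7 stayed past the threshold and 20 members were higher, where 16.3% of all genes were, and 1, Hist3h2ba, was lower (16.3%).

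**Figure D3:**
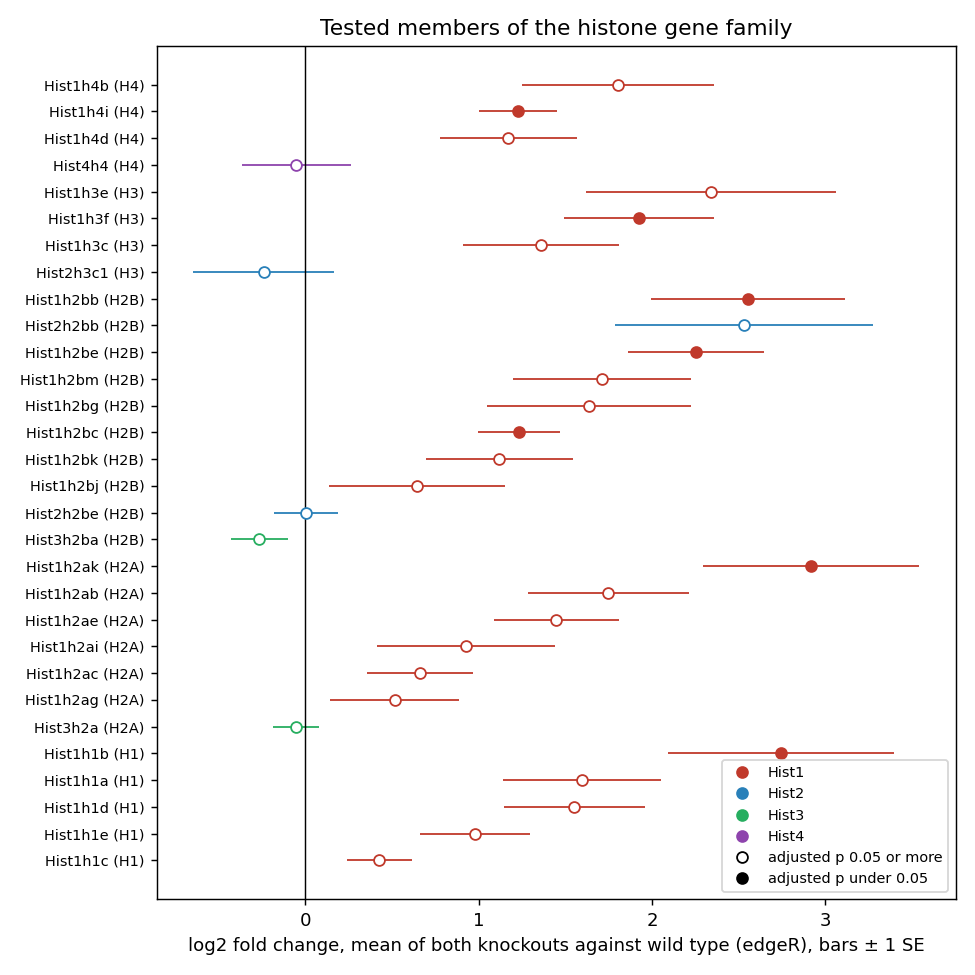
Log2 fold change of the 30 tested members, mean of both knockouts against wild type, with bars of 1 SE from edgeR; filled circles passed an adjusted p of 0.05 and colour gives the cluster. All 24 tested Hist1 genes lie between 0.43 and 2.92, above 0, and both tested Hist3 genes lie at -0.05 and -0.27.

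Among the H1 genes, Hist1h1b was at 6 and 1 reads in the wild types, 40 and 18 in male knockouts and 22 and 16 in female knockouts. No knockout library overlapped the wild types, and the gene rose with a log2 fold change of 2.74 (± 0.652 SE, adjusted p = 0.0481 by edgeR), on few wild-type reads. Hist1h1c, the most read gene of Hist1, stood at 9.86 and 7.92 CPM in the wild types, 11.998 and 9.42 in male knockouts and 11.9 and 10.8 in female knockouts. Its groups overlapped, through male knockout 2, and its log2 fold change of 0.43 did not pass (edgeR adjusted p = 0.189). Hist1h1a, Hist1h1d and Hist1h1e lay without overlap at log2 fold changes of 1.60, 1.55 and 0.98 and did not pass either (edgeR adjusted p = 0.0820, 0.0640 and 0.111). The testis H1 gene Hist1h1t had 0 reads in both wild types and 2 to 4 in each knockout library, too few for a fold.

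Of the H2A genes, Hist1h2ak had 4 and 1 reads in the wild types, 28 and 14 in male knockouts and 20 and 15 in female knockouts. It rose without overlap between groups, with the highest log2 fold change of the tested members, 2.92 (± 0.624 SE, adjusted p = 0.0349 by edgeR). Hist1h2ae stood at 1.12 and 0.689 CPM in the wild types, 2.33 and 3.12 in male knockouts and 2.27 and 1.56 in female knockouts, and at a log2 fold change of 1.45 it just missed the threshold (edgeR adjusted p = 0.0534). The groups of Hist1h2ab did not overlap either, at a log2 fold change of 1.75. Hist1h2ac and Hist1h2ag were flatter, with log2 fold changes of 0.66 and 0.52, and Hist1h2ag overlapped between groups.

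Of the 7 calls, 3 were H2B genes. Hist1h2bc had 56 and 38 reads in the wild types, 96 and 119 in male knockouts and 122 and 95 in female knockouts, which is 3.15 ± 0.752, 6.84 ± 0.621 and 6.82 ± 0.933 CPM (SD, n = 2). Its knockout libraries all lay above the wild types and it rose by a log2 fold change of 1.23 (± 0.235 SE, adjusted p = 0.0244 by edgeR). Hist1h2be had 9 and 5 reads in the wild types, 39 and 27 in male knockouts and 31 and 35 in female knockouts, and had the smallest p-value of the family, with a log2 fold change of 2.26 (± 0.391 SE, adjusted p = 0.0176 by edgeR). Hist1h2bb had 2 and 3 reads in the wild types, 16 and 8 in male knockouts and 20 and 17 in female knockouts, a log2 fold change of 2.55 (± 0.561 SE, adjusted p = 0.0381 by edgeR). None of these 3 overlapped between groups. The annotated spans of Hist1h2bc and Hist1h2be are 8282 and 37455 bases, where 62 of the 68 members span under 1000. Their reads may therefore come from longer transcripts, and where in these spans the reads fell was not measured. Hist1h2bj, at 13 and 4 reads in wild type and 9 to 20 in the knockouts, did overlap, with a log2 fold change of 0.65.

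For H3, Hist1h3f had 8 and 4 reads in the wild types, 26 and 25 in male knockouts and 25 and 15 in female knockouts. It rose with no overlap, by a log2 fold change of 1.93 (± 0.433 SE, adjusted p = 0.0404 by edgeR). Hist1h3e and Hist1h3c stood at 2.34 and 1.36 and did not pass. Hist1h3b had 17 reads in male knockout 1 and 1 to 4 in every other library, so its higher mean came from 1 library.

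The H4 gene with the most reads, Hist1h4i, had 37 and 29 reads in the wild types, 76 and 86 in male knockouts and 64 and 77 in female knockouts. At 2.22 ± 0.307, 5.16 ± 0.137 and 4.46 ± 0.757 CPM (SD, n = 2) its groups did not overlap, and it rose by a log2 fold change of 1.23 (± 0.225 SE, adjusted p = 0.0215 by edgeR). Hist1h4b and Hist1h4d lay at 1.80 and 1.17 and did not pass. Hist4h4, which lies alone on chromosome 6, stood at 1.45 and 2.00 CPM in the wild types, 1.67 and 0.979 in male knockouts and 1.90 and 1.62 in female knockouts. The groups overlapped fully there, at a log2 fold change of -0.05 (± 0.315 SE, adjusted p = 0.928 by edgeR).

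The Hist3 genes Hist3h2ba and Hist3h2a were the most read members and did not follow Hist1. The third, Hist3h2bb-ps, had 2 to 5 reads in each library. Hist3h2ba, an H2B gene, stood at 63.4 and 53.3 CPM in the wild types, 36.5 and 51.4 in male knockouts and 47.4 and 43.4 in female knockouts, and its log2 fold change of -0.27 (SE 0.164) did not pass (edgeR adjusted p = 0.317). With the library set as a term the same log2 fold change of -0.27 passed (edgeR adjusted p = 0.0381). Hist3h2a, an H2A gene, stood at 42.3 and 41.3 CPM in the wild types, 30.9 and 39.8 in male knockouts and 37.3 and 40.5 in female knockouts, a log2 fold change of -0.05 (± 0.131 SE, adjusted p = 0.819 by edgeR). Under TMM scaling male knockout 2 lay above wild type 1 for Hist3h2a, at 41.1 against 40.7 CPM, so the lower CPM of the knockouts does not hold there. Levels per length can be set beside each other for the 62 members whose annotated span is under 1000 bases. In wild type Hist3h2ba reached 126 CPM per kilobase and Hist3h2a 82.2, against 12.3 for Hist1h1c and 5.50 for Hist1h4i.

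Hist2 held genes of both kinds. Hist2h2be, an H2B gene with most of the reads of this cluster, stood at 14.4 and 12.3 CPM in the wild types, 9.80 and 12.3 in male knockouts and 11.5 and 16.0 in female knockouts, a log2 fold change of 0.00 (± 0.183 SE, adjusted p = 0.990 by edgeR). Hist2h2bb had 4 and 1 reads in the wild types, 33 and 12 in male knockouts and 11 and 8 in female knockouts. Its groups did not overlap, and its log2 fold change of 2.53 (SE 0.745) did not pass (edgeR adjusted p = 0.0883). Hist2h3c1, at 0.789 and 1.17 CPM in wild type and 0.429 to 1.04 in the knockouts, overlapped. Hist2h2ab, Hist2h2ac and Hist2h3b, with at most 2 reads in a wild-type library, had 3 to 9 in every knockout library. Hist2h3c2 had lower knockout means, at 8 and 5 reads in the wild types, 1 and 3 in male knockouts and 7 and 2 in female knockouts. Hist2h4 had 3 and 0, then 8 and 10, then 3 and 5 reads. Both overlapped between groups in CPM.

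Of the 38 members that were not tested, 32 had reads, at a mean of at most 0.523 CPM. For 16 of them all 4 knockout libraries lay above both wild types, where this held for 7.57% of all genes with a read. Hist1h4h is an example, with 3 and 1 reads in wild type and 7 to 11 in the knockout libraries, and Hist1h2bh another, with 2 and 1 against 7 to 8. Others had lower knockout means, such as Hist1h2bp, with 7 and 2 reads in wild type and 1 to 3 in the knockout libraries, with overlap. The 6 members at 0 everywhere were Hist1h2ap, Hist1h2bq, Hist1h2br, Hist1h4n, Hist2h2aa1 and Hist2h2aa2. Reads that align to more than 1 place are left outside the gene counts, and histone genes have near-identical copies, so a 0 here is no sign that a gene was silent. Such reads numbered 5279609 and 5865643 in the wild types and 6466095 to 6837130 in the knockout libraries. As a share of these reads and the reads on genes together, they made up 25.8% and 28.8% against 29.3% to 30.9%. This loss therefore differed between the groups without overlap, and its part in the histone results was not tested. All member counts are uncertain for this reason.

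Along chromosome 13 the Hist1 genes fall into 2 blocks more than 200 kilobases apart. The block of 23 members stood at 9.14 and 4.69 CPM in the wild types, 18.8 and 15.2 in male knockouts and 15.6 and 14.7 in female knockouts, 2.46-fold and 2.19-fold. The block of 31 members stood at 25.7 and 17.3, then 47.1 and 42.0, then 45.1 and 38.6 CPM, 2.07-fold and 1.95-fold. In the sums of both blocks the knockout libraries lay above wild type without overlap. The same held for 9 of 23 and 24 of 31 single genes, where it held for 7.57% of all genes with a read. The 23 include Hist1h2ap, Hist1h2bq, Hist1h2br and Hist1h4n, which had no reads in any library.

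By sex, the tested members had a median log2 fold change of 1.36 in the male and 1.27 in the female comparison. Both comparisons share the wild-type libraries and the filter, which a member could pass on the strength of the knockouts alone. In the male knockout 3 members were called higher (0.379% of genes tested) and 0 lower (1.96%), with 19 higher (7.66% of genes) and 0 lower, where 1816 of the 14521 genes were, at an unadjusted p under 0.05. DESeq2 called 6 of 23 higher (1.1%) and 0 lower (4.37%). The 3 were Hist1h4i at a log2 fold change of 1.33 (± 0.250 SE, adjusted p = 0.0334 by edgeR), Hist1h2be at 2.27 (± 0.430 SE, adjusted p = 0.0345 by edgeR) and Hist1h2bc at 1.23 (± 0.262 SE, adjusted p = 0.0495 by edgeR). This count rested on single libraries and moved with the library left out, and calls over all genes moved too. The members' median log2 fold change then ranged from 1.17 without wild type 2 to 1.98 without wild type 1. Using library totals in place of TMM left 1 member called, beside 336 genes in all. The library set as a term gave 17, all higher, where 12% of genes were. A fit on the groups compared alone gave 13 members, beside 938 genes in all, where the main fit called 340 genes. In the female knockout edgeR called 0 higher (0.303%) and 0 lower (0.820%), with 16 higher (8.95% of genes) and 0 lower (10.6%) at an unadjusted p under 0.05. DESeq2 called 2 of 30 higher (0.937%) and 0 lower (2.64%). The nearest was again Hist1h2be, at 2.24 (± 0.430 SE, adjusted p = 0.0511 by edgeR). With the library set as a term, 11 were higher, where 12.2% of genes were. The female count of calls also moved with the library left out, as did that over all genes. The members' median log2 fold change then ranged from 0.91 without wild type 2 to 1.74 without wild type 1.

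Between the knockouts themselves, edgeR called 0 members higher in females (0.00689% of genes tested) and 0 lower (0.0275%), with 0 higher (1.02%) and 0 lower (0.702%) at an unadjusted p under 0.05 and 0 either way by DESeq2 (0.0138% each). The median log2 fold change of the tested members, female against male, was -0.20. Hist1h2bc stood at 0.00 (SE 0.243), Hist1h4i at -0.21 (SE 0.230) and Hist2h2bb, the farthest apart, at -1.26 (SE 0.591). A missed threshold does not show that the sexes were alike.

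Genes that serve the histone genes were read as whole lists, beside shares of all genes in both knockouts against wild type. At an unadjusted p under 0.05 these shares were 11.4% higher and 14.6% lower. DESeq2 called 2.5% higher and 5.6% lower, and edgeR with the library set as a term 16.3% higher and 16.3% lower. None of 19 tested genes for transcription and 3' end processing of histone mRNA passed in both knockouts against wild type by edgeR or DESeq2, with 5 higher and 0 lower at an unadjusted p under 0.05. With the library set as a term 7 of the 19 were called higher and 0 lower. Slbp, whose product binds the stem-loop, stood at 101 and 94.3 CPM in the wild types, 113 and 115 in male knockouts and 101 and 101 in female knockouts, a log2 fold change of 0.26 (± 0.110 SE, adjusted p = 0.184 by edgeR). Npat stood at 53.0 and 67.4 CPM in wild type and 43.1 to 62.0 in the knockouts, a log2 fold change of -0.08 (± 0.167 SE, adjusted p = 0.772 by edgeR). Both overlapped between groups. Of 14 chaperone genes, which carry histones to DNA, 0 passed by edgeR, at an unadjusted p under 0.05 or by DESeq2, and 1 was higher and 1 lower with the library set as a term.

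Of 25 genes for DNA replication and S phase 0 passed by edgeR, with 11 higher and 0 lower at an unadjusted p under 0.05 and 1 higher by DESeq2. With the library set as a term 15 of the 25 were called higher and 0 lower. Their median log2 fold change was 0.29, with 24 of 25 above 0, and their sum stood at 2680 and 2371 CPM in wild type and 2616 to 3000 CPM in the knockouts, with overlap. Of 16 genes for G2 and mitosis 0 passed by edgeR or DESeq2, with 7 higher and 0 lower at an unadjusted p under 0.05 and a median of 0.25; with the library set as a term 8 were called higher and 0 lower. The 11 replacement variants had a median of 0.22, with 0 called by edgeR, 5 higher and 0 lower at an unadjusted p under 0.05 and 3 higher by DESeq2, and with the library set as a term 5 were called higher and 0 lower. Their sum stood at 4295 and 4105 CPM in wild type and 4094 to 4800 CPM in the knockouts. The mean of that sum was 1.07-fold the wild type in male and 1.01-fold in female knockouts.

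The list of other RNAs made without a poly(A) tail held 11 genes, of which 10 had reads and 4 were tested. All 4 tested genes had a positive log2 fold change in both knockouts against wild type. Of the 11, all 4 knockout libraries lay above both wild types in CPM for 4 genes and below them for 1. Over all genes with a read these shares were 7.57% and 23.6%. The ribosomal RNA precursor Rn45s had 142502 and 55588 reads in the wild types, 745861 and 511476 in male knockouts and 540755 and 461495 in female knockouts, a log2 fold change of 2.55 (± 0.450 SE, adjusted p = 0.0186 by edgeR). Rmrp, the RNA of RNase MRP, had 26 and 11, then 151 and 76, then 95 and 174 reads (2.77, ± 0.477 SE, adjusted p = 0.0168 by edgeR). Rpph1, the RNA of RNase P, had 14 and 8, then 51 and 29, then 55 and 75 reads (2.24, ± 0.399 SE, adjusted p = 0.0193 by edgeR). All 3 rose without overlap between groups. Scarna2, a small RNA of Cajal bodies, stood at 2.27 and did not pass (edgeR adjusted p = 0.0819). So 3 of the 4 tested genes of this list passed, where 1.07% of all genes tested were called higher. The 6 libraries fell in the same order by summed Hist1 level and by Rn45s: wild type 2, wild type 1, female knockout 2, male knockout 2, female knockout 1, male knockout 1. By Rmrp and by Rpph1 the order of the knockout libraries was another one. Leaving this list out of the library totals gave 38 members above (10.3% of genes) and 2 below (19.6%) without overlap. The part of tail-less RNA, and of what each library retained of it, in the histone result was not tested.

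**Figure D4:**
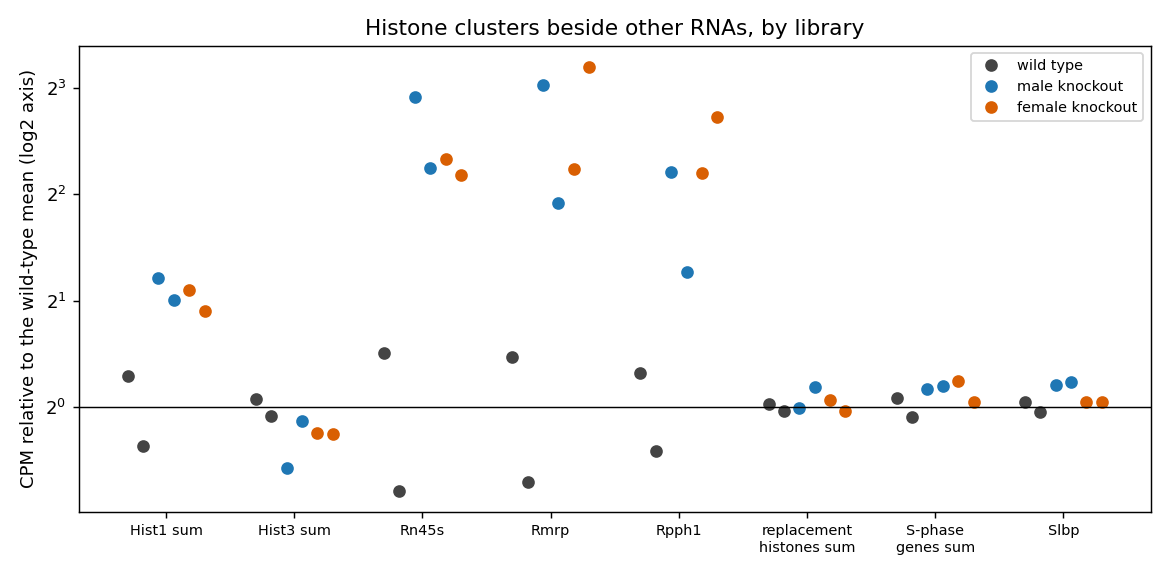
CPM of each library relative to the wild-type mean (log2 axis) for the Hist1 and Hist3 sums, Rn45s, Rmrp, Rpph1, the summed replacement variants, the summed S-phase genes and Slbp; each point is a library. Wild type 2 is the lowest point for Hist1, Rn45s, Rmrp and Rpph1, all 4 knockout points of these lie above both wild types, and the points of the replacement variants, S-phase genes and Slbp stay close to the line.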

How the data were processed

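RNA sequencing of 6 libraries was used; chromatin files were not used here. The authors' deposited table holds raw read counts per gene, per the file headers and HTSeq's summary lines, which were left out of totals. Per the submitters' processing notes, Trimmomatic, TopHat2, SAMtools and HTSeq were among the tools and mm9 the build; versions, annotation and strand setting are not given in the sources used here, so overlapping genes are uncertain. Members and gene lists were chosen with earlier results of these data known.

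CPM scale the counts to each library's reads on genes. Tests used edgeR 4.0.16 (R 4.3.3): filterByExpr, TMM, quasi-likelihood F test, 3 group means fitted over all 6 libraries, Benjamini-Hochberg adjustment over 14521 genes at 0.05. SE is the absolute log2 fold change divided by the root of F. Alternatives were DESeq2 1.42.0, other scalings and filters, a replicate block, the library set as a term, only the groups compared, and each library left out. The fit was tested on simulated data. Members with a mean of at least 1 CPM or past the threshold could be named, others by counts; untested members named as examples, and genes of other lists beyond those past the threshold, Rn45s, Slbp and Npat, were chosen after their values were seen. Symbols were matched to RefSeq's GRCm38.p6 tables (68 of 68); no mm9 coordinates were used.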

Additional observations from a re-analysis of the deposited data

How the results depend on the processing

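With library totals in place of TMM the median of all genes moved from 0.01 to -0.11 on the log2 scale (both knockouts against wild type), and 1 member passed in the male knockout. DESeq2 called 2 members in the female and 6 in the male knockout, and 520, 764 and 1130 genes in the female, male and joint comparisons, where edgeR called 163, 340 and 742. With the library set as a term, 11, 17 and 21 members and 3384, 3589 and 4735 genes passed. With only the groups compared, 33 genes passed in the female and 938 in the male knockout, with 13 members in the male. The replicate numbers did not pair the libraries (correlations of -0.237, 0.426 and -0.231 between same-numbered deviations). A replicate block gave 329 genes and 1 member in female knockouts, and 481 genes and 7 members in male knockouts.

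Leaving out each library in turn gave 60 to 1048 genes in the female, 2 to 990 in the male, 215 to 2212 in the joint and 5 to 9 in the female against male comparison, and 0 to 6, 0 to 11 and 0 to 14 members in the first 3. A group of 1 library was then assumed to vary like the others. The members' median log2 fold change ranged from 0.91 to 1.74, 1.17 to 1.98 and 1.02 to 1.88, and female against male from -0.26 to 0.01, changing sign to 0.0079 without female knockout 2. With each library left out, members above without overlap numbered 38 to 46, where 9.1% to 19.7% of genes with a read were. Members below numbered 3 to 5, where 25.2% to 44% of genes were. Those below were 1 with TMM scaling (15.9% of genes) and 2 with noncoding RNAs left out of the totals (19.6%). The female knockout's summed CPM was 164.9 without noncoding RNAs and 164.5 with TMM scaling (Hist3: 87.3 and 87.0). Counted over single genes, comparisons and settings together, 1178 results were the same as in the main fit, 82 gained a call, 35 lost it and 0 reversed. A result called in neither fit counts as the same, so these numbers do not measure how stable the calls were. Low counts of single members limit what can be seen.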
